A study of Mus musculus with 46 samples.

Results

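H3.3 is the replacement variant of histone H3, and the 31100 regions described here are its binding sites inside introns of mouse embryonic fibroblasts (D0) that had no counterpart in pluripotent cells. They were chosen by the H3.3 peak lists themselves. A D0 peak entered when its midpoint lay in an intron of a protein-coding gene and over 1 kb from any transcription start site (TSS), and when not 1 bp of it overlapped an H3.3 peak of the induced pluripotent stem cells (iPSCs) or of the embryonic stem cell line ESD3. Of 89727 D0 peaks, 45111 were distal and intronic, and 31100 of these were lost in both pluripotent libraries, which is 68.9% (95% Wilson interval 68.5 to 69.4). A further 5146 distal intronic peaks were kept in both, and 8865 in 1 of them. The fate in iPSCs and ESD3 is the rule and not a result, and "lost" means here that no peak was called, not that the histone was absent.

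H3.3 is put into chromatin outside of DNA replication. The chaperone Hira places it along transcribed genes and at regulatory elements, and a separate chaperone pair, Atrx and Daxx, places it at telomeric and other silent repeats. Trimethylation of lysine 36 of H3 (H3K36me3) follows elongating RNA polymerase through gene bodies, whereas trimethylation of lysine 4 (H3K4me3) marks promoters and, more weakly, some active enhancers. Introns of the genes that make a fibroblast hold many of its enhancers, and motifs of AP-1, the Fos and Jun dimer, are common at them.

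The data were peak lists of chromatin immunoprecipitation with sequencing (ChIP-Seq), with 1 library per group and an input control for each. D0 fibroblasts were transduced with retroviral Oct4, Sox2, Klf4 and c-Myc, and H3.3 was profiled on day 3 (D3) and in sorted cells on days 6, 9, 12 and 16. The Thy-1 negative cells of days 6 and 9 (D6T-, D9T-) and the SSEA-1 positive cells of days 12 and 16 (D12S+, D16S+) are the successful route, and the Thy-1 positive (D6T+, D9T+) and SSEA-1 negative cells (D12S-, D16S-) of the same days are the unsuccessful one. H3K4me3 and H3K36me3 lists covered D0, D3, the successful route and iPSCs. A separate conversion to blood progenitors with Scl, Lmo2, Runx1 and Bmi1 gave 4 H3.3 libraries: fibroblasts before induction (MEF), day 4 (D4), and cells sorted for cKit at the end (cKit+, cKit-). These factors come from the study and a time-point label, while the treatment text of those samples describes the Oct4, Sox2, Klf4 and c-Myc protocol. The fibroblasts were primary cultures in which Oct4 carries a GFP tag according to the study, the labels name no animals or separate cultures, and each sorted fraction is defined by a single surface marker.

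The H3.3 lists held 25637 to 108179 peaks from 18.7 to 91.8 M tags, and the mark lists 12322 to 57288 peaks. Because a library with more called peaks overlaps more regions, each share below stands beside the share of all 45111 distal intronic D0 peaks in the same library. The D0 library had the marks of fibroblasts. H3K4me3 lay within 1 kb of a TSS in 42 of 43 fibroblast matrix genes and H3K36me3 inside 41 of them, against 32 and 9 in iPSCs. Of 44 pluripotency genes, 32 had H3K4me3 at the start, 13 H3K36me3 and 20 H3.3 in the gene in D0, against 44, 18 and 40 in iPSCs, so many of this list were marked in the fibroblasts too. Within it, Pou5f1, Nanog and Zfp42, which define pluripotent cells, had no H3.3 in the gene and no H3K4me3 at the start in D0. All 3 had both in iPSCs. H3K36me3 was absent from the 3 genes in D0, but Pou5f1 and Nanog had none in iPSCs either. Sox2, Klf4, Esrrb and Tbx3 of the same list had H3.3 and H3K4me3 already in D0. No fraction was replicated, so no spread between replicates exists, and the intervals cover counting error only.

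In D0 the lost intronic peaks were short and of moderate signal. Their median length was 664 bp and their median score 9.27 tags per 10 M, the unit in which the peak caller reports a peak's tags without dividing by its length. Per kb the median was 13.4, the fold over input 4.08, and the regions covered 34.9 Mb in all. Of the lost peaks 39.1% were exactly 500 bp long, the smallest length in the list. The kept peaks were longer, with a median of 2007 bp and a score of 28.2, but nearly equal in density (14.1 per kb) and fold (4.22). Only 13.8% of the kept peaks had the smallest length. The retention and mark shares of the kept peaks are therefore also given after weighting them to the lengths of the lost ones, whereas the later fate of marked peaks and the shares by gene position are not weighted. At the edges of the rule, 2569 lost peaks had a pluripotent H3.3 peak within 500 bp, the nearest directly adjoining, and 610 peaks left out overlapped one by 100 bp or less. The lost peaks lay a median of 6.67 kb from the nearest pluripotent peak. The closest midpoints lay just beyond the 1 kb limit to a TSS, and 2267 lost intronic peaks fell out for lying within 1 kb.

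Regions among the densest of stated classes are printed below from the mm9 reference, plus strand, as the central 300 bases of the D0 peak. They were picked for a high score per kb and do not typify the lost peaks. A score given for another library is the sum over its peaks that overlap the D0 peak. Those peaks count whole, also where they reach beyond the D0 peak. The first set holds the densest peaks that carried an AP-1 motif in this window and were also called in MEF and in all 4 unsuccessful fractions. Capitals mark matches to TGANTCA.

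Alg9 intron, chr9:50623160-50623459: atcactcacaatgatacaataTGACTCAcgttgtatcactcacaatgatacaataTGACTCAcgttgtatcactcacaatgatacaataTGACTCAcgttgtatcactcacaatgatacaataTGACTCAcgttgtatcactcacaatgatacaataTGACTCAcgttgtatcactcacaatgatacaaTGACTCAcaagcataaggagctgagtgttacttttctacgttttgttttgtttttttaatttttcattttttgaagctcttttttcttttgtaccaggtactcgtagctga

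Rtkn2 intron, chr10:67447207-67447506: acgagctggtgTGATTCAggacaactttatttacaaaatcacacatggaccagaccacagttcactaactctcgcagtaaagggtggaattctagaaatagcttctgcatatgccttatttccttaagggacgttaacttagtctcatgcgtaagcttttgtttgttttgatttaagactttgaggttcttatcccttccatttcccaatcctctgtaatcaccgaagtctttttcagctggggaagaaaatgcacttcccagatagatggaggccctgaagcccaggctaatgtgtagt

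Fam171a1 intron, chr2:3135655-3135954: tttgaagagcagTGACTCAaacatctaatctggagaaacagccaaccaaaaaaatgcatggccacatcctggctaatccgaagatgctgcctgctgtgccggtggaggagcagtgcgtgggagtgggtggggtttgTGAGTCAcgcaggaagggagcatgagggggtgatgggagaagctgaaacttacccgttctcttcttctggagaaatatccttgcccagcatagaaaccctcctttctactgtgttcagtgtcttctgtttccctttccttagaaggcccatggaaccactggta

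The Alg9 window, in the gene of a mannosyltransferase of glycoprotein synthesis, held 6 matches inside a tandem repeat, so they are copies of 1 sequence. Its D0 peak was 3537 bp long and scored 88.3. The score was 72.4 in D3, 50.2 in D6T- and 67, 30.2, 24.2 and 26.1 in the unsuccessful fractions from day 6 to day 16, while D9T-, D12S+ and D16S+ had no peak. In the other conversion it was 37 in MEF, 77.8 in D4, 6.98 in cKit+ and 26.9 in cKit-. Presence in MEF and in the unsuccessful fractions is how the 3 peaks of this set were chosen, so it is no result. The Fam171a1 peak (2547 bp, score 51 in D0), 65.7 kb from a TSS, followed a like course. It scored 35.2 in D3, 18 in D6T- and 5.71 in D9T-, and was absent from D12S+ and D16S+. The unsuccessful fractions gave 49.1, 26, 33.3 and 11.2 from day 6 to day 16, and MEF gave 48.5. Its window held 2 matches. The Rtkn2 peak (2286 bp, score 52.5) carried D0 H3K4me3 and scored 10.2 to 22 in the unsuccessful fractions. It was absent from D9T- and D12S+ but returned with 6.93 in D16S+.

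The next pair holds one of the densest lost peaks with D0 H3K36me3 and no H3K4me3, and, beside Rtkn2, one of the densest with H3K4me3. Neither window holds an AP-1 match, so no letters are in capitals.

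Hjurp intron, chr1:90164513-90164812: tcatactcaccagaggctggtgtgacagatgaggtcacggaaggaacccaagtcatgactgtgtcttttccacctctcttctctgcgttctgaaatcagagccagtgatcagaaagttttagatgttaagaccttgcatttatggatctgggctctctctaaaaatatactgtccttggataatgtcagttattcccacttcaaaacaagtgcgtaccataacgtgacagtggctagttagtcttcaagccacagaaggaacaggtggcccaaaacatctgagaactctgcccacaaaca

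Mapk10 intron, chr5:103422525-103422824: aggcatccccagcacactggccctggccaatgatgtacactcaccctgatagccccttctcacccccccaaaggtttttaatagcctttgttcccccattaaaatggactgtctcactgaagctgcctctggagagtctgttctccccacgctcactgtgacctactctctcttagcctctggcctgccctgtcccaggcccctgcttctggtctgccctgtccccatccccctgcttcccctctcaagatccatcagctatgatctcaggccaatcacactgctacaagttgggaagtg

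The Hjurp peak, in the gene of the centromere histone chaperone, had a fold of 2.2 over input, near the floor of the list, and was otherwise called in D6T+ (15.8) and D12S- (17.9) alone. It does not stand for its class, since over all lost peaks with H3K36me3 alone D6T+ overlapped 30% and D6T- 38.2%. The Mapk10 peak, in the gene of the neuronal Jun kinase Jnk3, had a fold of 7.43 and H3K4me3 in D0. It scored 20.3 to 25.8 in all 4 unsuccessful fractions and 6.77, 28.1, 9.27 and 11.1 in D3, D6T-, D9T- and D12S+, and was absent from D16S+.

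How long the lost peaks lasted on each route was followed in the 13 libraries that the rule did not use. MEF, fibroblasts before induction, overlapped 23.1% of the lost peaks (background 28.8%), so a low share does not by itself show loss with time. On the successful route the lost peaks were found least from day 12 on. D3 overlapped 32.8% of them, against 41.4% of all distal intronic D0 peaks, D6T- 31.9% (background 43.6%), D9T- 21.0% (32.7%), D12S+ 7.15% (18.1%) and D16S+ 2.65% (10.3%). After D3 the largest step was from day 9 to day 12. The D12S+ and D16S+ lists were also the shortest of the reprogramming lists, with 45922 and 34062 peaks. In the unsuccessful fractions the shares stayed between 21.2% and 34.3%. D6T+ overlapped 29.9% (background 38.4%), D9T+ 25.8% (35.6%), D12S- 34.3% (46.3%) and D16S- 21.2% (32.3%). The interval was 32.2 to 33.3% for D3 and 2.48 to 2.84% for D16S+. Cut to equal numbers of 34062 top-scoring peaks per library, the shares were 19.0% (D3), 19.0% (D6T-), 12.5% (D9T-), 4.78% (D12S+) and 2.65% (D16S+) on the successful route, against 19.4%, 16.0%, 18.9% and 12.6% in the unsuccessful fractions from day 6 to day 16.

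**Figure D1:**
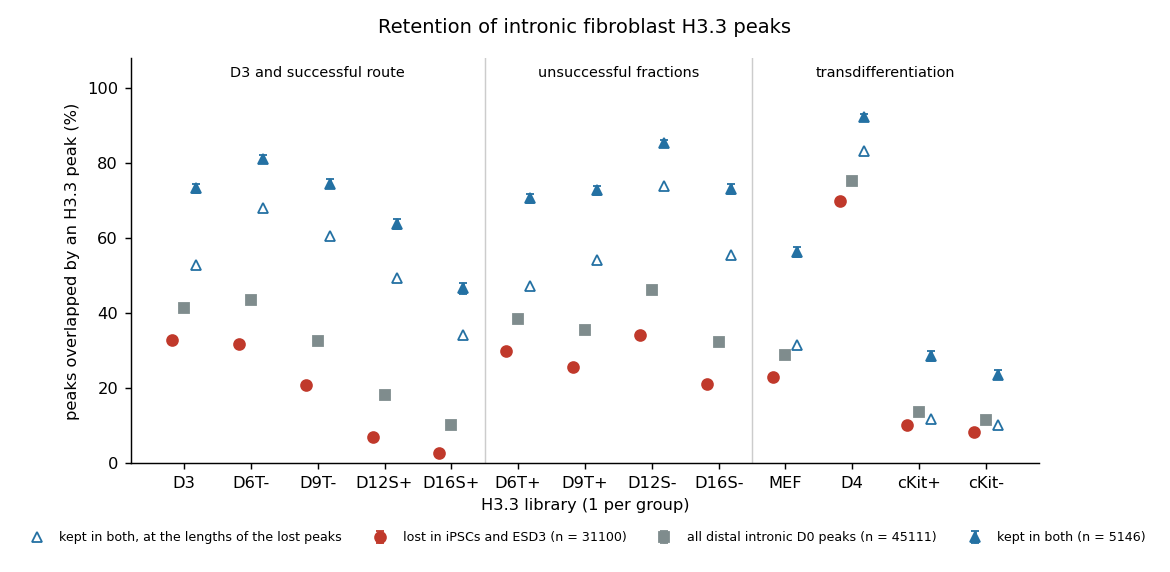
Percent of D0 H3.3 peaks (y axis) overlapped by at least 1 bp of an H3.3 peak in each library (x axis), with 95% Wilson intervals. Circles are the 31100 lost intronic peaks, squares all 45111 distal intronic D0 peaks, filled triangles the 5146 kept peaks and open triangles the kept peaks weighted to the lengths of the lost ones. The lost peaks drop to 2.65% in D16S+ but remain at 21.2% in D16S-.

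The lost peaks were found less often than the kept ones of the same length in every library outside the rule. At matched lengths, the share of lost peaks overlapped was 0.62 times that of kept peaks in D3, and 0.468, 0.347, 0.145 and 0.0774 times on the successful route from day 6 to day 16. In the unsuccessful fractions this ratio was 0.633, 0.476, 0.464 and 0.381 from day 6 to day 16. In the conversion to blood progenitors it was 0.732 in MEF, 0.84 in D4, 0.858 in cKit+ and 0.829 in cKit-. The shares of lost and of kept peaks at matched lengths were 23.1% and 31.6% in MEF, 69.9% and 83.2% in D4, 10.2% and 11.9% in cKit+, and 8.49% and 10.2% in cKit-. The kept peaks were themselves chosen by their overlap with iPSCs and ESD3, so these ratios are descriptive. The second fibroblast library, MEF, overlapped only 23.1% of the lost peaks (background 28.8%), and D4, the longest list with 108179 peaks, overlapped 69.9% (75.3%). The cKit+ and cKit- backgrounds were 13.7% and 11.5%.

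Between the fractions of the same day, the unsuccessful one overlapped fewer lost peaks on day 6 and more on each later day. The difference was -1.99 points on day 6, 4.78 on day 9, 27.1 on day 12 and 18.6 on day 16. Its mean of 12.1 points gave p = 0.25 when the signs of the 4 days were flipped in every way (exact permutation test, two-sided), a design that can reach no lower than 2 in 16. Without day 12 the mean was 7.11 points. With equal numbers of peaks the difference was positive on all 4 days (0.428, 3.5, 14.1 and 9.99 points, mean 7.01), and the day 6 value then fell within counting error of 0. The same difference over all distal intronic D0 peaks was -5.26, 2.86, 28.2 and 22 points, with a mean of 11.9, and over the kept peaks -10.5, -1.79, 21.6 and 26.5 points. In points, the late gap between the routes was therefore of like size in the lost peaks and in the background. The lost peaks themselves make up 68.9% of that background. In proportion the gap was not alike. D16S- and D16S+ overlapped 21.2% and 2.65% of the lost peaks and 32.3% and 10.3% of the background. For the kept peaks the shares were 73.2% and 46.7%. On day 12, 8879 lost peaks were found in D12S- alone, 439 in D12S+ alone and 1784 in both. On day 16 the counts were 6139, 369 and 456.

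Traced one by one, 48.7% of the lost peaks (15155) were in none of the 5 libraries from D3 to D16S+, and 35.1% (10908) were in none of the 9 reprogramming libraries outside the rule. The last route library to hold a peak was D3 for 12.4%, D6T- for 14.4%, D9T- for 15.5%, D12S+ for 6.34% and D16S+ for 2.65%. A set of 2158 peaks (6.94%, background 8.03%) was present in D3, D6T- and D9T- and absent from D12S+ and D16S+. In D12S- and D16S- but neither D12S+ nor D16S+ were 3507 (11.3%, background 12.4%), and the reverse pattern held for 12 (0.0386%, background 0.177%). Presence in all 4 unsuccessful fractions and no successful one was found for 170 (0.547%, background 0.532%), and the reverse for 0, where the background was 1 peak (0.00222%). These shares were near or below the background.

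Longer peaks were overlapped more often. A longer peak offers more bases to an overlap of 1 bp, so this order does not show that longer peaks lasted longer. Of the 12160 lost peaks of 500 bp, 11.5% were in D16S- and 1.63% in D16S+, and of the 3967 over 2 kb, 48.6% and 5.65%. Of the 440 over 5 kb, 69.1% were in D16S- and 8.86% in D16S+. The same order held outside this course. MEF overlapped 8.91% of the shortest class and 88.4% of those over 5 kb, and D4 53.4% and 99.5%.

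The chromatin marks at these sites in D0 split them into unequal classes. H3K36me3 covered 35.0% of the lost peaks (34.5 to 35.5, background 38.1%) and H3K4me3 15.1% (14.7 to 15.5, background 20.5%). H3K36me3 without H3K4me3 was found at 10012 of them (32.2%), H3K4me3 without H3K36me3 at 3812 (12.3%), both at 876 (2.82%) and neither at 16400 (52.7%). Kept peaks had more of both, with 46.5% for H3K36me3 and 44.0% for H3K4me3. At the lengths of the lost peaks the values were 36.5% and 25.5%, which leaves little difference in H3K36me3 and a larger one in H3K4me3. The 20633 lost D0 peaks outside genes and over 1 kb from a TSS had H3K36me3 at 5.84% and H3K4me3 at 19.3%.

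Fewer of the sites carried the marks in D12S+, D16S+ and iPSCs than in D0, but H3K36me3 did not fall steadily. D3 had H3K36me3 at 23.0% of the lost peaks (background 26.0%), D6T- at 13.7% (17.0%), D9T- at 33.2% (37.0%), D12S+ at 2.98% (4.39%), D16S+ at 3.62% (5.24%) and iPSCs at 6.46% (10.9%). The low value of D12S+ came from the shortest H3K36me3 list (12322 peaks), and the dip in D6T- from a library whose estimated fragment length was 444 bp against 120 to 158 bp in the others. The D9T- list of H3K36me3 covered the most, 168 Mb, against 154 Mb in D0, 7.43 Mb in D12S+ and 19.6 Mb in iPSCs. The part of list coverage or fragment length in these shares was not tested. After 15.1% in D0, H3K4me3 lay at 5.66% of them for D3 (background 10.7%), 8.35% for D6T- (14.9%), 6.23% for D9T- (12.0%), 2.62% for D12S+ (8.2%), 1.02% for D16S+ (3.96%) and 2.19% for iPSCs (9.46%). Of the 10888 lost peaks marked with H3K36me3 in D0, 75.5% still had the mark in D9T- and 14.7% in iPSCs, against 83.9% and 46.6% of the 2392 marked kept peaks. Of the 4688 marked with H3K4me3, 9.92% were marked in iPSCs, against 61.9% of the 2265 kept ones. The kept peaks had to hold H3.3 in iPSCs, while the marks were measured with other antibodies.

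**Figure D2:**
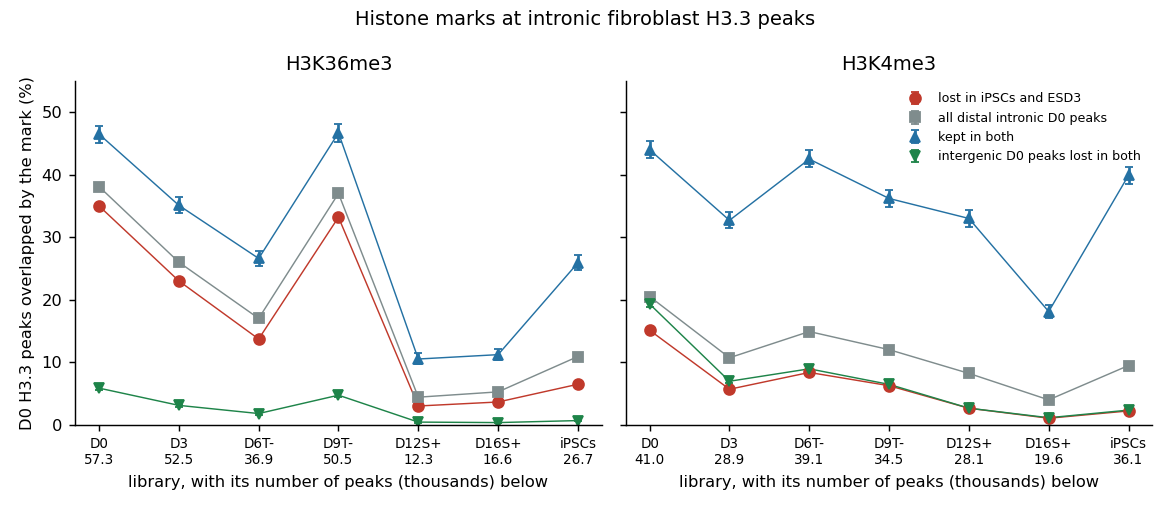
Percent of D0 H3.3 peaks (y axis) overlapped by an H3K36me3 (left) or H3K4me3 (right) peak from D0 to iPSCs (x axis, with the number of peaks in each list), with 95% Wilson intervals. Circles are the lost intronic peaks, squares all distal intronic D0 peaks, triangles the kept peaks and inverted triangles the lost intergenic peaks. H3K36me3 at the lost peaks goes from 35.0% in D0 to 6.46% in iPSCs, and H3K4me3 from 15.1% to 2.19%.

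The mark in D0 went with how the peak behaved elsewhere. MEF overlapped 52.0% of the lost peaks with H3K4me3 alone and 14.2% of those with H3K36me3 alone, and 39.4% against 14.8% once both were weighted to the lengths of all lost peaks. Peaks with neither mark were at 20%, and at 23.8% after the same weighting. In the late unsuccessful fractions the classes were nearer to each other, with 25.6% and 21.7% in D16S- at equal lengths. In D16S+ they were at 3.46% and 3.07%. In D6T- the order turned, with 31.6% of the H3K4me3 class and 38.7% of the H3K36me3 class at equal lengths. It turned by less in D3 (34.1% and 36.4%), cKit+ (9.5% and 11.6%) and cKit- (8.38% and 8.83%), also at equal lengths. H3K4me3 peaks were longer, with a median of 1306 bp against 653 bp.

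**Figure D3:**
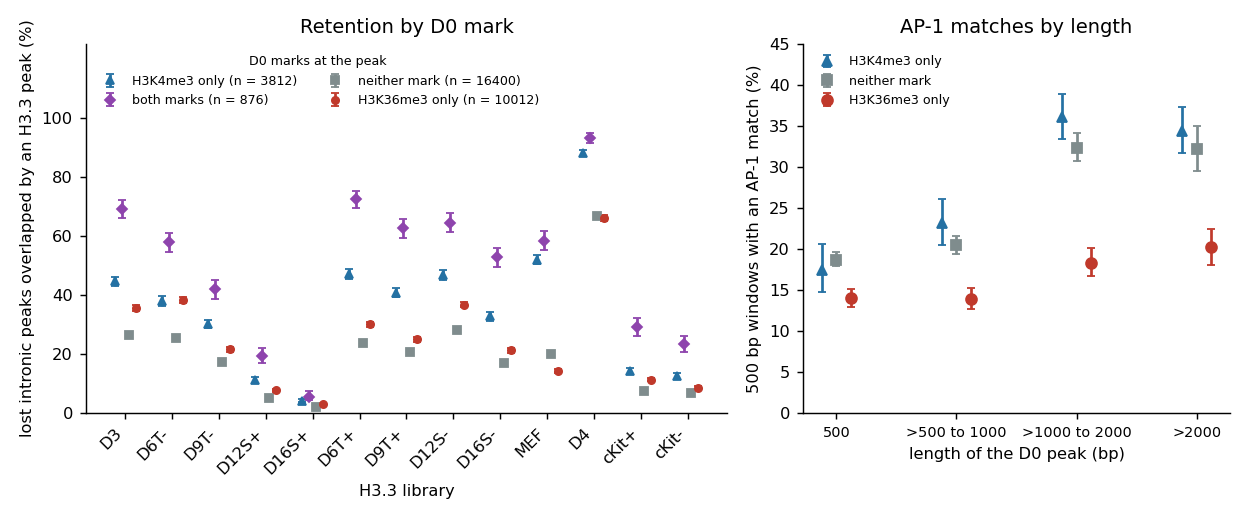
Left, percent of lost intronic peaks (y axis) overlapped by an H3.3 peak in each library (x axis), by the marks on the peak in D0. Right, percent of 500 bp windows with an AP-1 match (y axis) by length of the D0 peak (x axis) for 3 of these classes. Points carry 95% Wilson intervals. In MEF the H3K4me3 class stands at 52.0% and the H3K36me3 class at 14.2%, and AP-1 matches reach 36.1% in H3K4me3 peaks over 1000 and up to 2000 bp.

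Position in the gene ordered the marks. Of 30413 lost peaks with a single host gene, cut into 5 equal stretches from the gene's start to its end, 18.9%, 21.7%, 21.2%, 20.4% and 17.8% fell into each. H3K36me3 rose along them from 19.7% (18.7 to 20.7) to 28.8%, 36.5%, 43.3% and 47.5% (46.2 to 48.8). H3K4me3 fell from 22.6% (21.6 to 23.7) to 12.2% (11.3 to 13.1). In the kept peaks H3K36me3 went from 25.1% to 70.9% over the same stretches, and H3K4me3 from 58.1% to 36.2%. Retention of the lost peaks did not follow position, with 20.2% to 22.5% in D16S- and 2.53% to 2.80% in D16S+.

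**Figure D4:**
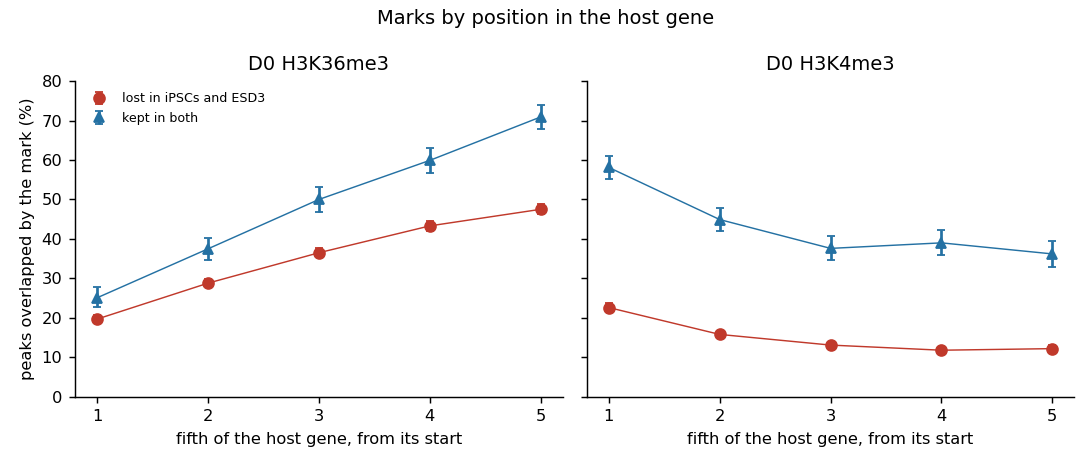
Percent of D0 H3.3 peaks with a single host gene (y axis) overlapped by D0 H3K36me3 (left) or D0 H3K4me3 (right), by stretch of the host gene, 1 to 5 from its start (x axis), with 95% Wilson intervals. Circles are the lost intronic peaks and triangles the kept peaks. H3K36me3 at lost peaks climbs from 19.7% to 47.5%.

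The sequence under the lost peaks held more AP-1 letters than its surroundings. A match to TGANTCA, which reads the same on both strands, was in 21.1% (20.7 to 21.6) of the 500 bp windows centred on them, in 13.4% of windows free of D0 peaks at a distance of 5 kb, and in 17.4% of the kept windows. Over all distal intronic D0 peaks the share was 20.1% (19.8 to 20.5), near that of the lost ones, and the kept windows too stood above their own surroundings (12.2%). Among peaks over 1000 and up to 2000 bp, 28.5% of lost and 18.5% of kept windows held a match, and among those of 500 bp 17.1% and 15.3%. Lost intergenic windows reached 29.4%. The gap to the surroundings held in each class of GC content, with 22.5% against 13.7% under 40% GC and 18.6% against 10.9% at 50% GC and above. Matches were more common in lost peaks with H3K4me3 alone (29.4%) and with neither mark (22.6%) than with H3K36me3 alone (15.5%). Among peaks over 1000 and up to 2000 bp the values were 36.1%, 32.3% and 18.3%, in the same order. Peaks also found in MEF had 26.8%, and those not found there 19.4%. Of the other motifs searched, TEAD (GGAATG) was in 25.9% of lost windows, 23.7% of surrounding windows and 25.4% of kept windows, and NFI (TTGGCA) in 25.2%, 22.7% and 23.3%. KLF letters (GGGNGTGG) were in 12.4% of lost, 12.3% of surrounding and 19.2% of kept windows, and the ZEB E-box (CAGGTG) in 30.5%, 29.5% and 35.9%. RUNX (TGTGGTT) was at 13.0%, 12.1% and 14.1%, and CEBP (TTGCNNAA) at 19.9%, 19.2% and 17.6%. The TWIST E-box (CATATG) was at 12.5%, 13.1% and 8.98%, the octamer (ATGCAAAT) at 2.68%, 3.11% and 2.00%, the cyclic AMP element (TGACGTCA) at 0.328%, 0.358% and 0.330% and ETS (CCGGAAGT) at 0.360%, 0.361% and 0.428%. Windows 5 kb from the kept peaks held KLF letters in 16.5% and the ZEB E-box in 34.9%. The TWIST E-box was in 10.8% of them and the octamer in 2.72%. Part of the difference between lost and kept windows thus lay in their surroundings too. GC content was 45% in lost, 43.4% in surrounding and 47.4% in kept windows. A match is a run of letters and not a measured binding site.

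The lost peaks lay in 7516 of the 9301 genes that had any distal intronic D0 peak. The median host gene had 2 of them, 758 host genes had at least 10 and together held 44.2% of the lost peaks, and in 3985 every distal intronic D0 peak was lost. Most host genes had H3K4me3 at their start in both cell types. It lay within 1 kb of a TSS in 91.7% of host genes in D0 and 88.2% in iPSCs. An iPSC H3.3 peak lay somewhere in the gene in 80.8% of host genes. This was below the 98.2% of the 1785 genes with distal intronic D0 peaks of which none was lost. Those genes were shorter, with a median of 16.9 kb against 48 kb. The mark shares of host genes have no such comparison here. H3K36me3 in the gene went from 79.2% to 56.7%. In 664 host genes with at least 5 lost peaks, every distal intronic D0 peak was lost. There H3K4me3 at the start went from 93.7% to 87.2% and H3K36me3 from 85.4% to 37.8%. Of these genes 70.5% still had an iPSC H3.3 peak somewhere in the gene. The H3K36me3 list itself went from 57288 peaks over 154 Mb in D0 to 26697 over 19.6 Mb in iPSCs, and the H3K4me3 list from 41015 over 68 Mb to 36122 over 52.8 Mb, and their part in these counts was not tested.

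The host genes with the most lost peaks were long. Gm20388, with 254, and Fgfr2, with 100, have gene models of 4435 and 3009 kb that run over many other genes, and only 136 and 40 of their peaks had no other host. After them came Rbms3, for an RNA-binding protein, with 99 of 104 distal intronic peaks lost, Lpp, for a focal adhesion protein, with 96 of 109, and Slit3, for a secreted guidance ligand, with 71 of 74. Ccbe1, for a secreted matrix protein of lymphatic growth, lost 70 of 73. Asap1, an Arf GTPase activator, lost 64 of 71, Snd1, an RNA-binding nuclease, 62 of 80, Mast4, a kinase, 60 of 64, and Frmd4a, a scaffold protein, 59 of 64. In Rbms3 (chr9:116481864-117539031) the lost peaks covered 141 kb, 49 of the 99 carried H3K36me3 in D0 and 0 in iPSCs, and its start had no H3K4me3 in iPSCs. D3 held 21 of the 99, D6T- 6, D9T- 2, D12S+ and D16S+ 0, D6T+ 23, D9T+ 16, D12S- 5, D16S- 2 and MEF 29. Few of its peaks were thus called late on either route. Most were not called in MEF either, so these counts do not by themselves show loss with time. Ccbe1 was alike, with 2 of 70 in D12S- and 0 in D16S-. Mast4 differed, with 29 of 60 in D12S-, 22 in D16S-, 11 in D12S+ and 1 in D16S+.

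By summed D0 score the leading genes other than Gm20388, Rbms3, Ccbe1, Frmd4a, Lpp and Asap1 were Trio, an activator of small GTPases (score 2045, 55 peaks), Col5a1, a type V collagen chain (1864, 15 peaks), Fbn1, fibrillin-1 of the elastic microfibrils (1804, 40 peaks), and C230081A13Rik, now named Peak1, a cytoskeletal kinase (1790, 47 peaks). Col5a1 (chr2:27741945-27895034) held its signal in few and broad peaks, which covered 120 kb of a 153 kb gene, the longest 26.2 kb. Of its 15 peaks 14 carried H3K36me3 in D0 and 0 in iPSCs. D3 held 10, D6T+ 8, D9T+ 2, D6T-, D12S- and D16S- 1 each, and D9T-, D12S+ and D16S+ 0, while MEF held 14. Fbn1 (chr2:125126330-125333729) lost 40 of 41 peaks, which covered 122 kb, and 35 of them had H3K36me3 in D0. It lasted longer, with 31 of 40 in D3 and 25, 18, 4 and 0 in the successful fractions from day 6 to day 16, against 31, 29, 34 and 14 in the unsuccessful ones. In iPSCs H3.3 covered 0.689 kb of this gene, and H3K4me3 still lay over its start.

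Peaks held by every unsuccessful fraction and by no successful one were spread thinly over genes. Zmiz1, a transcriptional cofactor, had 3 of them, and Lpp, the GTPase activators Rasa3 and Stard13, Cux1, a homeobox factor, Lhfp, 1300010F03Rik (now Vwa8), Antxr1, a collagen receptor, Fndc3b and Ppfibp1 had 2 each. In Antxr1 all 39 distal intronic D0 peaks were lost, 34 of them with H3K36me3, and D16S- still held 7 against 0 in D16S+.

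Gene lists described where the loss was most complete, without a test, since the genes were listed with results of these data known. Against 68.9% over all genes, 375 of 403 distal intronic D0 peaks in fibroblast matrix genes were lost (93.1%), 492 of 560 in mesenchymal transcription factors (87.9%), 278 of 351 in the TGF-beta pathway (79.2%), 415 of 555 in actin and adhesion genes (74.8%), 407 of 574 in the Mapk cascade (70.9%) and 35 of 51 in AP-1 factors (68.6%). Lower shares were found in the Hippo pathway (178 of 316, 56.3%), epithelial genes (32 of 62, 51.6%), housekeeping genes (29 of 63, 46.0%) and pluripotency genes (12 of 47, 25.5%). In the Mapk cascade, Fgfr2 with its long gene model gave 100 of the 407 lost peaks and 163 of the 574. Only 40 of those 100 had no other host. In the matrix list H3K36me3 lay on 65.3% of its lost peaks in D0 and 3.73% in iPSCs, and MEF held 45.3% of them. Over all lost peaks these values were 35.0%, 6.46% and 23.1%. The matrix peaks were longer, with a median of 1075 bp against 664 bp, and longer peaks were overlapped more often. The shares by list were not weighted for length, and the part of length in them was not tested. D12S- held 38.1% of the matrix peaks against 2.93% in D12S+, and D16S- 19.7% against 0.267% in D16S+, which is 74 peaks against 1. Over all lost peaks the shares were 34.3% and 7.15% on day 12 and 21.2% and 2.65% on day 16. The matrix share in D16S- was thus near that of all lost peaks. In mesenchymal factors 35.2% of the lost peaks had H3K36me3 in D0 and 0.813% in iPSCs. In housekeeping genes 72.4% of the lost peaks had H3K36me3 in D0, 27.6% kept it in iPSCs, and D16S- and D16S+ held 48.3% and 10.3% of 29 peaks.

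**Figure D5:**
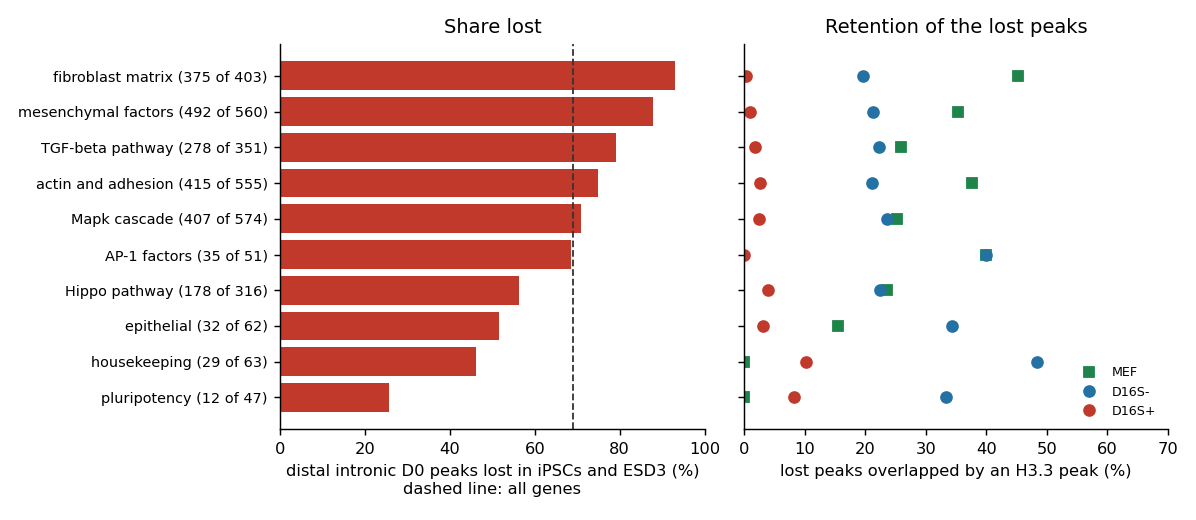
Left, percent of distal intronic D0 H3.3 peaks lost in iPSCs and ESD3 (x axis) in each gene list (y axis, with counts), beside all genes (dashed line, 68.9%). Right, percent of those lost peaks (x axis) overlapped in MEF, D16S- and D16S+. Fibroblast matrix genes lead with 93.1%, and 0.267% of their lost peaks are found in D16S+.

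Among matrix genes, Ltbp1, which stores latent TGF-beta, lost 50 of 52 peaks, Col4a2, a basement membrane collagen, 34 of 35, and Col5a2, the partner chain of Col5a1, 32 of 32. Col5a2 (chr1:45431166-45560127) had H3K36me3 on 30 of its 32 peaks and no H3K4me3 at its start in iPSCs. D4 held all 32 of them, MEF 5, D3 13, D6T- 5, D6T+ 7, D9T- 3, D9T+ 5, D12S- 4, D16S- 1, and D12S+ and D16S+ 0. Of the adhesion genes, Cdh11, the mesenchymal cadherin, lost 42 of 42, with 37 under H3K36me3, and 15 remained in D3, 1 in D12S- and 0 in D12S+, D16S- and D16S+. The actin-binding Pdlim5 and Palld lost 34 of 40 and 30 of 38. The transcription factors Runx2 (43 of 43), Tcf4 (41 of 46) and Foxp1 (40 of 43) were among the leading genes of the mesenchymal list, though only 9 of the Runx2 peaks had no other host gene.

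In the TGF-beta pathway the receptors led besides Ltbp1. Tgfbr3, the betaglycan coreceptor, lost 30 of 31 peaks, Bmpr1b, a BMP receptor, 22 of 23, and Tgfbr2 (chr9:115993415-116084383), the receptor that binds TGF-beta itself, 18 of 18. Tgfbr2 had no H3.3 peak anywhere in the gene in iPSCs or ESD3. Its peaks were still found on both routes at day 12, with 6 of 18 in D3 and 9, 14, 6 and 0 in the successful fractions over the 4 days, against 11, 12, 17 and 11 in the unsuccessful ones. In the Mapk cascade the growth factor receptors Igf1r (50 of 57) and Egfr (25 of 25) and the Ras inhibitor Nf1 (22 of 26) followed Fgfr2. Egfr too had no H3.3 peak in iPSCs or ESD3, and D16S- held 4 of its 25.

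The lists with fewer losses had genes that kept much H3.3. Tead1, the DNA-binding partner of Yap and Taz, lost 18 of 57 peaks and had 99.2 kb of H3.3 in iPSCs. The other leading Hippo genes, Wwtr1, which encodes Taz, Wwc2 and the kinase gene Stk3, lost 23 of 29, 20 of 31 and 17 of 19. Jarid2, a Polycomb cofactor, lost 4 of 21 peaks and had 106 kb of H3.3 in iPSCs. Dnmt3a, a DNA methyltransferase, lost 3 of 7, Tcf3, an E-protein, 1 of 3, and Lin28b, an RNA-binding protein, its only one. Of the AP-1 related factors, Bach2 lost 23 of 24, Jdp2 2 of 7, Maff 2 of 2 and Atf2 2 of 4. Bach2 had H3K4me3 on 8 and H3K36me3 on 0 of its lost peaks. Epithelial genes were led by Tjp1, a tight junction scaffold (14 of 17), the plakophilins Pkp2 (4 of 7) and Pkp1 (3 of 3), and Cgn, for cingulin (3 of 6). The housekeeping genes were Psmb2 (4 of 4), Pgk1 (3 of 4), Gpi1 (3 of 7) and Reep5 (2 of 4). Adcy7, an adenylyl cyclase gene named apart from the lists, lost all 7 of its peaks. D4 held 5 of them, D6T+ 2, D6T- 1, and D3, D9T-, D9T+, D12S+, D12S-, D16S+, D16S- and MEF 0, and its start had H3K4me3 in D0 and none in iPSCs.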

How the data were processed

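Per the submitters' processing notes and the file headers, the authors aligned the ChIP-Seq reads to mm9 with STAR and called broad regions with HOMER against the matching input, 1 library per group, without pooling, and asked for a fold over input of 2 for H3.3 and 4 for the marks; versions were not given in the sources used here. The deposited lists hold, per peak, a signal (normalised tag count per 10 M tags, not divided by length, input not subtracted), the region size, the fold ratio over input and a p-value. Input libraries were not analysed here. Depth per library is the total tag number of the file header.

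Peaks were intersected in Python 3.11.15 with numpy 2.4.6 and pandas 2.3.3 and drawn with matplotlib 3.10.9. Introns and TSSs came from GENCODE vM1, and sequence from the NCBIM37 (mm9) genome, whose chromosomes contained every deposited peak. Overlap meant at least 1 bp. A peak midpoint in an exon of any protein-coding gene was not intronic, and a peak was given to each gene whose intron held it. Shares carry 95% Wilson intervals for counting error, which take neighbouring peaks as independent. Kept peaks were weighted to the lost peaks' length classes. The p-value of each peak was not used, and no test was made across peaks, since every group had 1 library. Differences between fractions of a day were tested by an exact sign-flip permutation test over 4 days. Motifs were searched on both strands in 500 bp windows. The overlap, gap, motif and interval code was tested on simulated data.

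Genes were named by a rule: the 10 with most lost peaks, the 10 with the largest summed D0 score, the 10 with most peaks held by every unsuccessful and no successful fraction, the 4 with most in each list, and Adcy7. The sequences shown are the peaks of highest D0 score per kb in each stated class. One gene and 1 sequence that the rules chose are not reported here. Members, lists and motifs were chosen with earlier results of these data known. Alternatives were equal peak numbers (by score or score per kb), overlap of at least 0.5 of the peak, fold of at least 4, no pluripotent peak within 1 kb, edge over 1 kb from a TSS, presence in MEF, autosomes only, loss in iPSCs alone, 1 host gene only and 300 bp windows.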

Additional observations from a re-analysis of the deposited data

Results flagged for a closer look

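Unsuccessful minus successful cells of a day gave another sign on day 6 than on days 9, 12 and 16. On day 6, D6T+ overlapped 29.9% of the lost intronic peaks and D6T- 31.9%, a difference of -1.99 points, whereas the later days gave 4.78, 27.1 and 18.6 points. Each value rests on 1 library per fraction, the difference between days was not tested, and D6T- had the longer list (82764 peaks against 60705).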

How the results depend on the processing

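The mean difference between fractions of a day (12.1 points) kept its sign under every alternative run, and the exact permutation test over 4 days could pass the threshold under none of them, at 7.01 points with equal peak numbers, 6.1 with overlap of at least 0.5 of the peak, 22.8 in members also in MEF, and between 7.11 and 16.8 with 1 day left out. On day 6 it turned positive with equal peak numbers (0.428), without a pluripotent peak within 1 kb (0.0609) and in peaks also in MEF (10.5). The number of lost peaks was 16692 at a fold of at least 4 and 7197 in MEF.

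The median share over the 9 reprogramming libraries (25.8%), the share in no library from D3 to D16S+ (48.7%), and the D0 H3K36me3 (35.0%) and H3K4me3 (15.1%) shares became, in this order, 16.0%, 67.1%, 21.8% and 4.54% with equal peak numbers, 12.9%, 67.1%, 28.2% and 6.72% with overlap of at least 0.5 of the peak, 24.2%, 49.7%, 36.8% and 17.4% at fold 4, and 41.5%, 33.2%, 26.9% and 34.7% in MEF. Without a pluripotent peak within 1 kb the first 3 were 24.7%, 51.6% and 33.6%. For loss in iPSCs whatever ESD3 showed, the first 2 were 26.9% and 47.2% and H3K4me3 15.7%. H3K4me3 was 14.3% with the peak edge over 1 kb from a TSS, and ranking by score per kb gave a median of 14.3%. Weighting, chosen after seeing the data, moved the kept peaks from 73.2% to 54.2% for the median, 46.5% to 36.5% for H3K36me3 and 44.0% to 25.5% for H3K4me3. AP-1 was at 13.3% in 300 bp windows, 20.3% at fold 4 and 19.9% without H3K4me3. Equal peak numbers, stricter overlap and shorter windows leave less to overlap; the cause of the other shifts was not tested. The number of host genes was within 1.5 times. Each group had 1 library, so neither culture nor antibody variation can be told from the groups, and list length bounds each share.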

Other observations

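On the X chromosome 251 of 274 distal intronic D0 peaks were lost (91.6%, 95% Wilson interval 87.7 to 94.3), against 68.8% on the autosomes (68.4 to 69.2). The X-linked lost peaks were also less often found in most of the libraries outside the rule. D3 overlapped 11.2% of them (7.83 to 15.7) against 32.9% on the autosomes, MEF 14.3% (10.5 to 19.2) against 23.2%, D16S- 11.2% against 21.3%, and cKit+ 0.797% (0.219 to 2.86), or 2 peaks, against 10.3%. In D9T- the shares were 21.1% and 21.0%. The X chromosome held 0.656% of all D0 H3.3 peaks, 0.958% of those in iPSCs, 0.661% in ESD3, 0.487% in D3 and 1.26% in D6T-. This split by chromosome was made after the values were seen. Loss in iPSCs and ESD3 is the rule, so the lost shares describe the set and their difference was not tested. The shares in the other libraries were not weighted for peak length.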
